A study of Rattus norvegicus with 9 samples.

Results

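Cell cycle and proliferation genes were followed in pancreatic islets of diabetic rats. The set held 46 genes that encode G1 cyclins and their kinases, the DNA replication machinery, mitotic cyclins, mitotic kinases and checkpoint proteins, and proteins of the chromosomes and spindle. They were chosen by gene symbol, from a list of established proliferation genes, and each was represented by its brightest probe set over the 9 arrays. Of the 46, 45 were measured, among 14217 named genes. Rrm2, the small subunit of ribonucleotide reductase, was not used because its 2 probe sets also carry the name of a related gene, Rrm2l1. A filter on dim probe sets was passed by 42 of the genes, among 20695 tested probe sets of 11619 genes. Ccna2, Bub1 and Mki67 fell below it and are given by their values.

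All animals were male Zucker Diabetic Fatty (ZDF) rats of the fa/fa genotype, which carry a defective leptin receptor, eat to excess and become diabetic, and all ate the Purina 5008 diet. The treated group received rosiglitazone, a type 2 diabetes drug that activates the nuclear receptor PPAR gamma, mixed into that diet as powdered Avandia. The dose was 3 mg/kg body weight, started at week 5, and the group was sampled at 9 weeks of age. The withdrawal group received the same drug from week 5 to week 9 and was sampled at 11 weeks, after 2 weeks without it. The untreated group received no drug and was sampled at 13 weeks. Each group had 3 Affymetrix arrays, described as biological replicates, and the study randomised 24 animals. Since each group had its own age, treatment and age cannot be told apart in any comparison, and the ages sampled lie within the period in which this strain loses beta cell function. The arrays read whole islet preparations, in which fewer cells of a type and less RNA per cell cannot be told apart.

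A cell that divides passes from G1 into DNA synthesis, then through G2 into mitosis. D-type cyclins with Cdk4 start the process by phosphorylating the retinoblastoma protein, which frees E2F transcription factors to switch on the replication genes. Genes of G2 and mitosis are switched on later, through B-Myb, FoxM1 and the DREAM and MuvB complexes, which act at CHR elements and CCAAT boxes. Adult beta cells divide rarely, and Ccnd2 and Cdk4 are the cyclin and kinase best known for their part in beta cell growth in rodents. Cells other than beta cells, such as macrophages, fibroblasts and endothelial cells, also divide in islets, so whole-islet RNA does not say which cells carry these transcripts.

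The promoters of 4 of the genes are shown because the genes turn up in the comparisons below and stand for the early and late parts of the cycle. Cdk1 is the kinase that drives mitosis, Top2a untangles chromosomes, Ttk is a kinase of the spindle checkpoint, and Pcna is the clamp that holds DNA polymerase on its template. Each sequence is the RefSeq promoter in build GRCr8, 300 bases from 250 before to 50 after the start site, written 5′ to 3′ on the strand of the gene. Capitals mark the CHR core TTTGAA and the box CCAAT, on either strand, so that TTCAAA and ATTGG are their reverse forms. The positions are chr20:19265043-19265342 on the plus strand for Cdk1, chr10:84473044-84473343 on the minus strand for Top2a, chr8:93634389-93634688 on the plus strand for Ttk and chr3:139955771-139956070 on the minus strand for Pcna.
Cdk1: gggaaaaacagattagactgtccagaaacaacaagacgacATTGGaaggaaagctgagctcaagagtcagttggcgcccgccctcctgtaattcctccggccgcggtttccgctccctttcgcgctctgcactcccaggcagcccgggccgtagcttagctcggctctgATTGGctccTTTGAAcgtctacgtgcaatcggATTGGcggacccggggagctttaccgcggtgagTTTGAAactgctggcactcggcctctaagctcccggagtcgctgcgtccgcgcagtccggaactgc
Top2a: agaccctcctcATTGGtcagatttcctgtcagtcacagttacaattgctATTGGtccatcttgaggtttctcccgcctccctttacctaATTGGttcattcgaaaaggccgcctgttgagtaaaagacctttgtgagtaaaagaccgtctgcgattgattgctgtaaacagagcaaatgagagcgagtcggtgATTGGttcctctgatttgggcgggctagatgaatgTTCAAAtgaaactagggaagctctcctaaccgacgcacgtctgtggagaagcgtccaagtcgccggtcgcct
Ttk: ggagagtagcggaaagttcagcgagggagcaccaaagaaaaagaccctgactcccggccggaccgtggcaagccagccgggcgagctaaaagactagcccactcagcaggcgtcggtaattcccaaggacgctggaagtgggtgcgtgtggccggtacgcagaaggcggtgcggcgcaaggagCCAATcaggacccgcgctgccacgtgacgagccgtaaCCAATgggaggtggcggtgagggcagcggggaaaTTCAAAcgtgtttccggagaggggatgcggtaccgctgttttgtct
Pcna: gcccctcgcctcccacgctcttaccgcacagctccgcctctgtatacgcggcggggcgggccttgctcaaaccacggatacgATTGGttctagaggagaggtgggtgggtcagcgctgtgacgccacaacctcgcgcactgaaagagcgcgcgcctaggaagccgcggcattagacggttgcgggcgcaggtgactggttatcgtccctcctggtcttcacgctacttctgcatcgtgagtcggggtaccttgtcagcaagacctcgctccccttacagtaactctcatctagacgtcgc
Cdk1 held 2 CHR cores and 3 CCAAT boxes, Top2a 1 and 4, Ttk 1 and 2, and Pcna no CHR core and 1 CCAAT box. A promoter was given for 36 of the 46 genes, not for Ube2c or Ccnd2. The CHR core stood in 16 of these 36 (44.4%), against 18.1% of all 27457 promoters in the table, and CCAAT stood in 26 (72.2%), against 37.7%. An E2F core, GCGGGAA, stood in 6 (16.7%), against 4.47%. The CHR core was spread unevenly over the roles, in 0 of 4 promoters of G1 genes, 1 of 10 of replication genes, 3 of 4 of mitotic cyclins with Cdk1, 5 of 9 of mitotic kinases and checkpoint genes, and 7 of 9 of chromosome and spindle genes. A match is a description of the letters and not a shown binding site.

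The arrays were not alike in spread, and the first treated array stood apart. The standard deviation of log2 values over probe sets was 1.836 to 1.997 on treated, 1.649 to 1.718 on withdrawal and 1.661 to 1.77 on untreated arrays. Among the brightest 10% of tested probe sets, where Ccnd1, Ccnd2, Ccnd3, Cdk4 and Pcna lie, treated arrays exceeded untreated ones by a median log2 difference of 0.53. There the median of withdrawal minus untreated was −0.17 and that of withdrawal minus treated −0.72. Among the dimmest 10% the 3 medians were −0.03, 0.04 and 0.06. Values after quantile normalization, which gives all arrays the same distribution, are therefore set beside the deposited ones. The 7 beta cell markers measured were bright, with a mean log2 of 11.15 to 12.04 per array. Their summed log2 was higher on treated arrays, at 83.1 to 84.3, than on withdrawal arrays, at 78.1 to 79.5, and untreated arrays, at 79.5 to 81.5. Of the 7, 3 rose in treated against untreated (20.9% of all tested probe sets did) and 4 fell in withdrawal against treated (32.6% did). After quantile normalization the mean deviation of the 7 from the 9-array mean was 0.09, 0.14 and 0.17 on treated arrays. It was −0.15, −0.20 and −0.16 on withdrawal and 0.08, 0.01 and 0.04 on untreated arrays. The part of these markers in the results was not tested. The 9 acinar markers had a mean of 13.81 to 13.98, so RNA of exocrine cells was read on every array.

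The gene set was most variable among the treated arrays. The median SD of its 42 tested genes was 0.37 on the log2 scale in the treated group, against 0.22 over all tested probe sets, and it was 0.11 in both other groups, against 0.12 and 0.14. After quantile normalization the treated SD was 0.25, against 0.18. The first treated array was the highest of the 9 for 26 of the 42 genes (61.9%, against 43.4% of all tested probe sets), and after quantile normalization for 21 of the 42 (against 22.8% of all). Within the treated group, the order 1, 3, 2 of the replicates, from high to low, held for 27 genes (64.3%, against 27.1% of all, or 21.5% after quantile normalization).

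**Figure D1:**
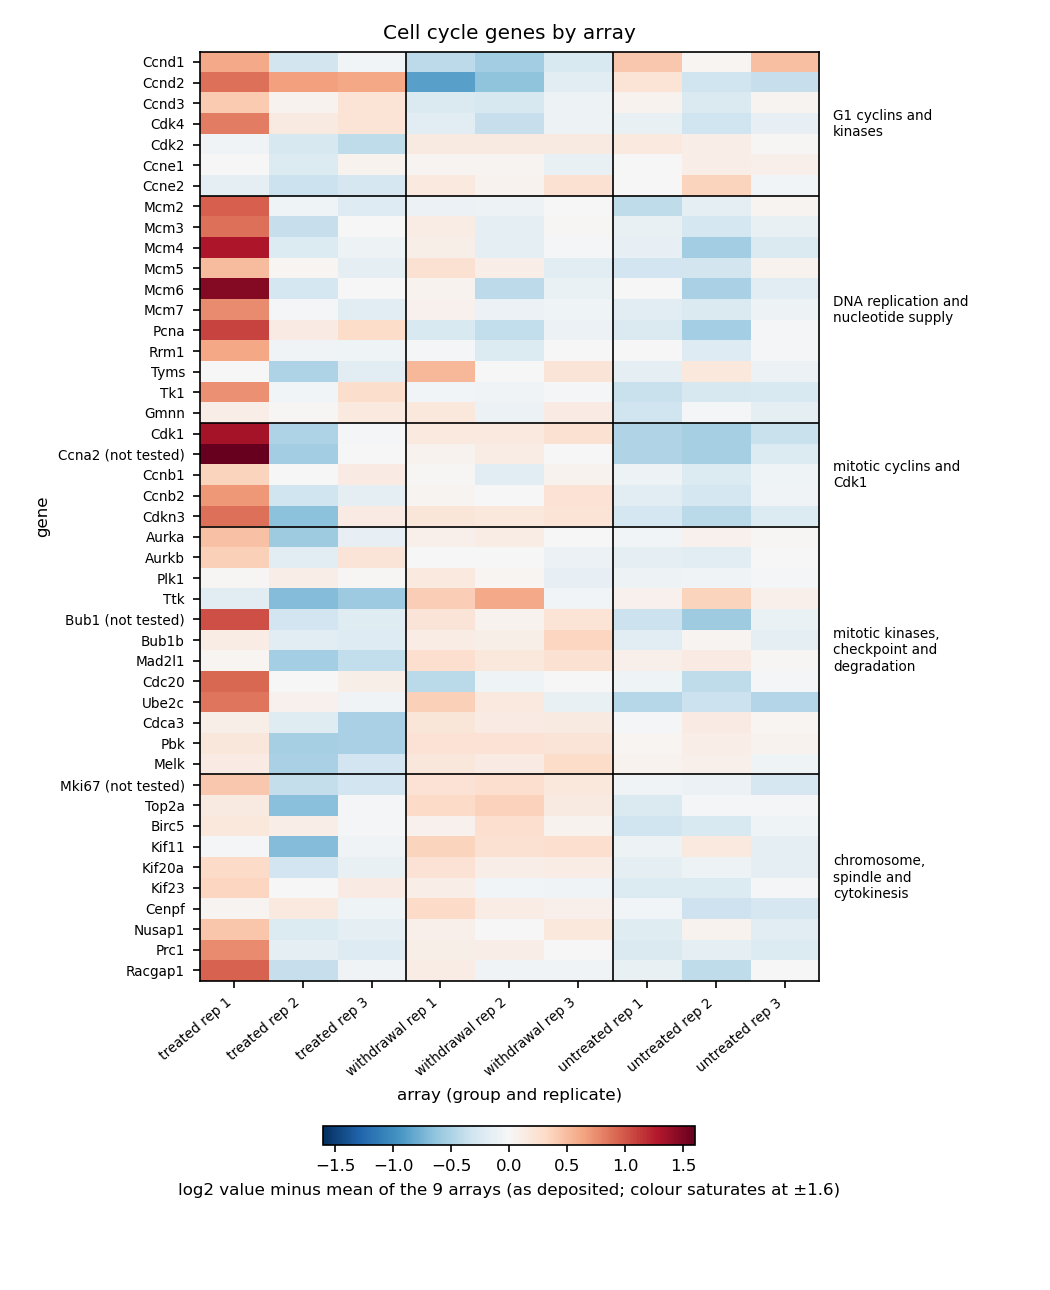
Log2 deviation of 45 cell cycle genes (rows, grouped by role) from each gene's mean over the 9 arrays (columns, 3 per group), as deposited, coloured from blue for below to red for above. The first treated array is the highest of the 9 for 26 of the 42 tested genes (61.9%, against 43.4% of all tested probe sets), and the second treated array is the lowest of its group for 29.

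The replication licensing genes give the clearest view of that array. Mcm4, a subunit of the MCM helicase that opens replication origins, had log2 values of 7.37, 5.86 and 6.0 on the treated, 6.18, 5.94 and 6.06 on the withdrawal and 5.95, 5.53 and 5.85 on the untreated arrays. Mcm6, another subunit, had 7.22, 5.47 and 5.74, then 5.81, 5.33 and 5.64, then 5.74, 5.23 and 5.58 in the same order. For both, the first treated array lay far above the other 8, which overlapped between groups, and neither passed the test in any comparison. Averaged by role, the deviation from the mean of the 9 arrays on the 3 treated arrays was 0.76, −0.12 and −0.01 for the replication genes, 0.81, −0.37 and 0.02 for the mitotic cyclins with Cdk1, and 0.36, −0.04 and 0.06 for the G1 genes. After quantile normalization these were 0.49, −0.16 and −0.02, then 0.56, −0.39 and 0.03, and for the G1 genes −0.04, −0.18 and −0.09.

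As deposited, the means of several lists of markers of other cells were high on that array, but not those of lymphocyte markers. Over the tested markers, its mean deviation was −0.28 for T lymphocytes and −0.57 for B lymphocytes, below all untreated arrays. The summed log2 of 10 macrophage markers ran from 65.6 to 80.7 on treated, 76.8 to 78.8 on withdrawal and 71.4 to 73.3 on untreated arrays, and that of 10 stellate cell and fibroblast markers from 88.3 to 101.9, 96.4 to 98.4 and 91.8 to 95.9. Over the 9 tested macrophage markers the mean deviation was 0.69, −0.94 and −0.22 on the treated arrays, 0.25, 0.33 and 0.45 on the withdrawal arrays and −0.17, −0.29 and −0.10 on the untreated arrays. As deposited, the first treated array was thus highest and the second lowest in this mean. Of the tested macrophage markers only Aif1 did not follow. It was lowest on the first treated array, at 7.19, against 7.52 and 7.42 on the other treated arrays. After quantile normalization the macrophage deviations were 0.28, −1.03 and −0.33 on treated and 0.43, 0.55 and 0.52 on withdrawal arrays, so that the first treated array lay below all withdrawal arrays. The stellate and fibroblast deviations were then 0.07, −0.89 and −0.29 on treated and 0.42, 0.45 and 0.41 on withdrawal arrays. Summed T lymphocyte markers (10 measured) ran from 55.0 to 56.9, 60.9 to 62.6 and 59.3 to 60.4 in the treated, withdrawal and untreated groups. The 3 B lymphocyte markers measured ran from 16.7 to 17.5, 17.9 to 18.7 and 17.8 to 18.6, the 9 endothelial markers from 71.7 to 78.1, 69.5 to 71.9 and 71.5 to 75.2, and the 6 duct markers from 52.9 to 57.8, 52.4 to 54.0 and 52.3 to 54.5. As deposited, 4 of 9 tested T and 2 of 2 B lymphocyte markers fell in treated against untreated (7.24% of all) and 0 rose (20.9%). In withdrawal against treated 6 and 2 rose (11.2% of all) and 0 fell (32.6%). Macrophage markers had 1 of 9 lower, then 1 higher. Endothelial markers had 0, then 2 of 9 lower. Duct markers had 1 of 6 lower, then 1 higher and 2 lower. Stellate and fibroblast markers had 0 of 10 called in either comparison. The part of these cells in the results was not tested. The counts of each comparison are given with and without the first treated array.

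**Figure D2:**
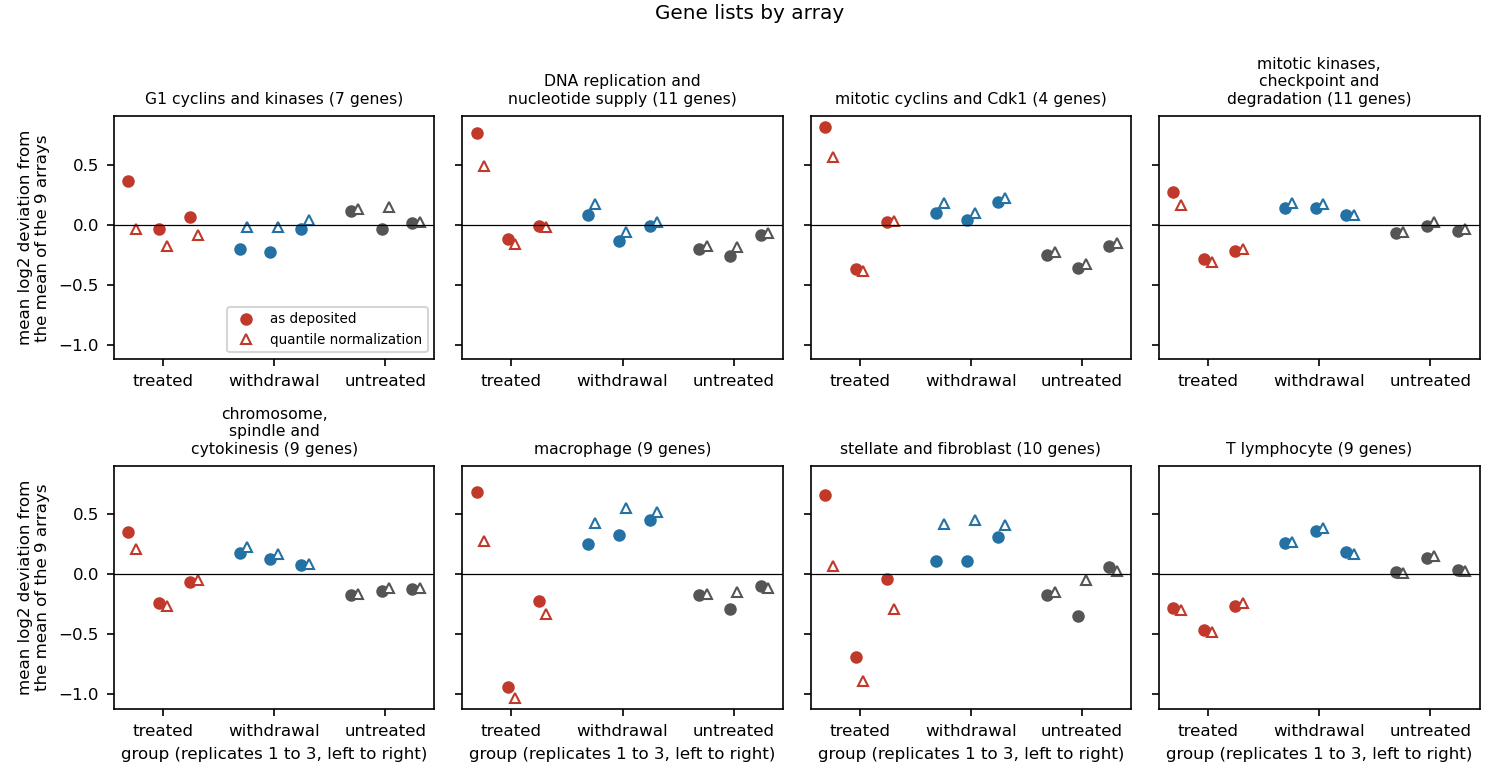
Mean log2 deviation from the 9-array mean, per array, for the 5 role groups of cell cycle genes and for macrophage, stellate and fibroblast, and T lymphocyte markers. Circles show deposited values and triangles quantile normalized values. In the replication group the first treated array lies at 0.76 and the other 8 arrays between −0.26 and 0.08, and macrophage markers run from −0.94 to 0.69 within the treated group.

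Treated islets at 9 weeks were compared with untreated islets at 13 weeks. Ccnd2, Cdk4, Pcna, Tk1 and Ube2c rose, 5 of 42 tested genes (11.9%), where 20.9% of all tested probe sets were called higher by limma at an adjusted p under 0.05. Ttk fell, 1 of 42 (2.38%), against 7.24% of all. Both shares of the gene set lay below the background, so the set as a whole was not called more often than other genes. The median log2 difference of the 42 was 0.26, against 0.16 over all tested probe sets, and 29 of the 42 were positive. Over all 3 groups the F test called 9 of the 42 (21.4%, against 37.0%), namely Pcna, Cdk4, Ccnd2, Ccnd1, Tk1, Ttk, Ube2c, Cdk2 and Mad2l1.

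Most of these calls did not hold on the other scale. After quantile normalization 1 gene, Tk1, was called higher (2.38%, against 7.75% of all) and 4, Ccnd1, Cdca3, Ttk and Cdk2, were called lower (9.52%, against 9.44%), with a median of 0.09 against 0.02. Only Tk1 and Ttk were called in the same direction on both scales. Without the first treated array the 5 higher calls were the same genes (11.9%, against 20.4% of all), while 8 of 42 genes were called lower (against 10.2% of all), namely Ccnd1, Cdca3, Ttk, Melk, Ccne2, Cdk2, Pbk and Mad2l1. Without the second untreated array no gene of the set was called (against 9.82% of all tested probe sets), and without the first untreated array 2 were, Ccnd2 and Ttk (4.76%, against 18.5%). Without the second treated array 12 were called, all higher (28.6%, against 22.5% of all called higher). Ttk missed the threshold once the second treated array was left out (adjusted p = 0.0588), and likewise for the third treated array (0.0607) and the second untreated array (0.108).

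Among the G1 genes, Ccnd2, cyclin D2, had log2 values of 10.49, 10.26 and 10.22 on the treated arrays, 8.74, 8.96 and 9.42 on the withdrawal arrays and 9.83, 9.29 and 9.24 on the untreated arrays. All treated arrays lay above all others, and the withdrawal and untreated arrays overlapped. The treated minus untreated difference was 0.87 ± 0.20 (SE, n = 3 per group; adjusted p = 0.00987), and 0.30 after quantile normalization (adjusted p = 0.242). It was 0.79 without the second untreated array (adjusted p = 0.0524), and also 0.79 without the first treated array (adjusted p = 0.00669).

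Cdk4, the kinase that D cyclins activate, had values of 10.15, 9.48 and 9.56 on treated, 9.15, 8.97 and 9.26 on withdrawal and 9.22, 9.02 and 9.21 on untreated arrays. The treated arrays again lay above all others. The difference of 0.58 ± 0.17 (adjusted p = 0.029) shrank to 0.04 after quantile normalization (adjusted p = 0.819), and it did not pass without the first, the second or the third untreated array (adjusted p = 0.0578, 0.115 and 0.0568). It was 0.37 without the first treated array (adjusted p = 0.0451).

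Ccnd1, cyclin D1, differed in pattern from Ccnd2. It measured 10.36, 9.46 and 9.71 on treated, 9.33, 9.20 and 9.51 on withdrawal and 10.19, 9.79 and 10.23 on untreated arrays, so that treated and untreated values overlapped through the first treated array. As deposited the difference was −0.23 ± 0.21 (adjusted p = 0.426), and after quantile normalization −0.77 (adjusted p = 0.00306). Without the first treated array it was −0.49 (adjusted p = 0.0262). Its 2 other probe sets gave −0.12 and −0.13 as deposited.

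Ccnd3, cyclin D3, at 9.52, 9.16 and 9.33 on treated, 8.87, 8.85 and 9.03 on withdrawal and 9.16, 8.88 and 9.15 on untreated arrays, had a treated minus untreated difference of 0.27 ± 0.14 (adjusted p = 0.148). Cdk2, the kinase of S phase entry, was lower on treated arrays, at 5.99, 5.78 and 5.64 against 6.20, 6.15 and 6.06, with 6.18, 6.19 and 6.19 on withdrawal arrays. Its difference was −0.33 ± 0.12 (adjusted p = 0.062) and −0.34 after quantile normalization (adjusted p = 0.0445). Ccne1, the E cyclin that pairs with Cdk2, had values from 5.65 to 5.97 over all 9 arrays and was called in no comparison.

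Among the replication genes, Pcna measured 10.18, 9.23 and 9.39 on treated, 8.86, 8.71 and 9.01 on withdrawal and 8.87, 8.55 and 9.08 on untreated arrays. Its treated arrays lay above all others and the first was the highest. The difference from untreated was 0.77 ± 0.22 (adjusted p = 0.0268), and 0.25 after quantile normalization (adjusted p = 0.202). It did not pass without the first or second untreated array (adjusted p = 0.0603 and 0.123). The value without the first treated array was 0.48 (adjusted p = 0.029).

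Tk1, the thymidine kinase that supplies dTTP in S phase, measured 7.75, 6.98 and 7.30 on treated, 6.98, 6.97 and 6.99 on withdrawal and 6.67, 6.77 and 6.78 on untreated arrays. The 3 treated arrays lay above the 3 untreated ones. It rose by 0.60 ± 0.17 (adjusted p = 0.0224) and by 0.41 after quantile normalization (adjusted p = 0.0461), but did not pass without the first or second untreated array (adjusted p = 0.0673 and 0.0688). Without the first treated array it was 0.40 (adjusted p = 0.0298), and 0.29 after quantile normalization without that array (adjusted p = 0.0901). The 2 dimmer probe sets of Tk1 did not follow, with treated minus untreated differences of −0.01 and −0.22, and the mean over probe sets gave 0.13 (adjusted p = 0.431). In withdrawal against treated these 2 rose by 0.51 and 0.48 (adjusted p = 0.0388 and 0.0234), while the brightest differed by −0.36 (adjusted p = 0.0979). The 6 Mcm genes, Rrm1 and Gmnn, the licensing inhibitor geminin, had positive treated minus untreated differences from 0.25 to 0.63, none of which passed. Without the first treated array those of the Mcm genes and Rrm1 were −0.01 to 0.15, and that of Gmnn was 0.25.

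Among the mitotic genes, Ube2c, the ubiquitin carrier of the anaphase-promoting complex, measured 7.70, 6.92 and 6.79 on treated, 7.23, 7.01 and 6.73 on withdrawal and 6.39, 6.50 and 6.38 on untreated arrays. Treated and withdrawal arrays overlapped, and both lay above the untreated ones. The treated minus untreated difference was 0.71 ± 0.21 (adjusted p = 0.0298), and 0.55 after quantile normalization (adjusted p = 0.0559). It did not pass without the first, the second or the third untreated array (adjusted p = 0.074, 0.0818 and 0.0733). Leaving out the first treated array gave 0.43 (adjusted p = 0.0351).

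Ttk, whose promoter is shown above, went the other way, with values of 5.03, 4.50 and 4.62 on treated, 5.59, 5.80 and 5.16 on withdrawal and 5.27, 5.55 and 5.28 on untreated arrays. Every treated array lay below every other array. It fell by 0.65 ± 0.19 (adjusted p = 0.0243) and by 0.61 after quantile normalization (adjusted p = 0.0434), and its difference without the first treated array was −0.81 (adjusted p = 0.00236). A second probe set of Ttk, too dim for the filter, had a difference of −0.44 in a fit without it (adjusted p = 0.0309).

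Cdk1 rests on the first treated array. It measured 8.18, 6.36 and 6.83 on treated and 6.37, 6.32 and 6.49 on untreated arrays, and the second treated array lay within the untreated range. The difference of 0.73 ± 0.34 did not pass (adjusted p = 0.119), and without the first treated array it was 0.20 (adjusted p = 0.305). Mki67, the Ki-67 gene used to mark dividing cells, was dim throughout, at 5.09, 4.28 and 4.35 on treated, 4.89, 4.93 and 4.82 on withdrawal and 4.60, 4.56 and 4.39 on untreated arrays. In a fit without the filter its treated minus untreated difference was 0.06 ± 0.18 (adjusted p = 0.828).

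**Figure D3:**
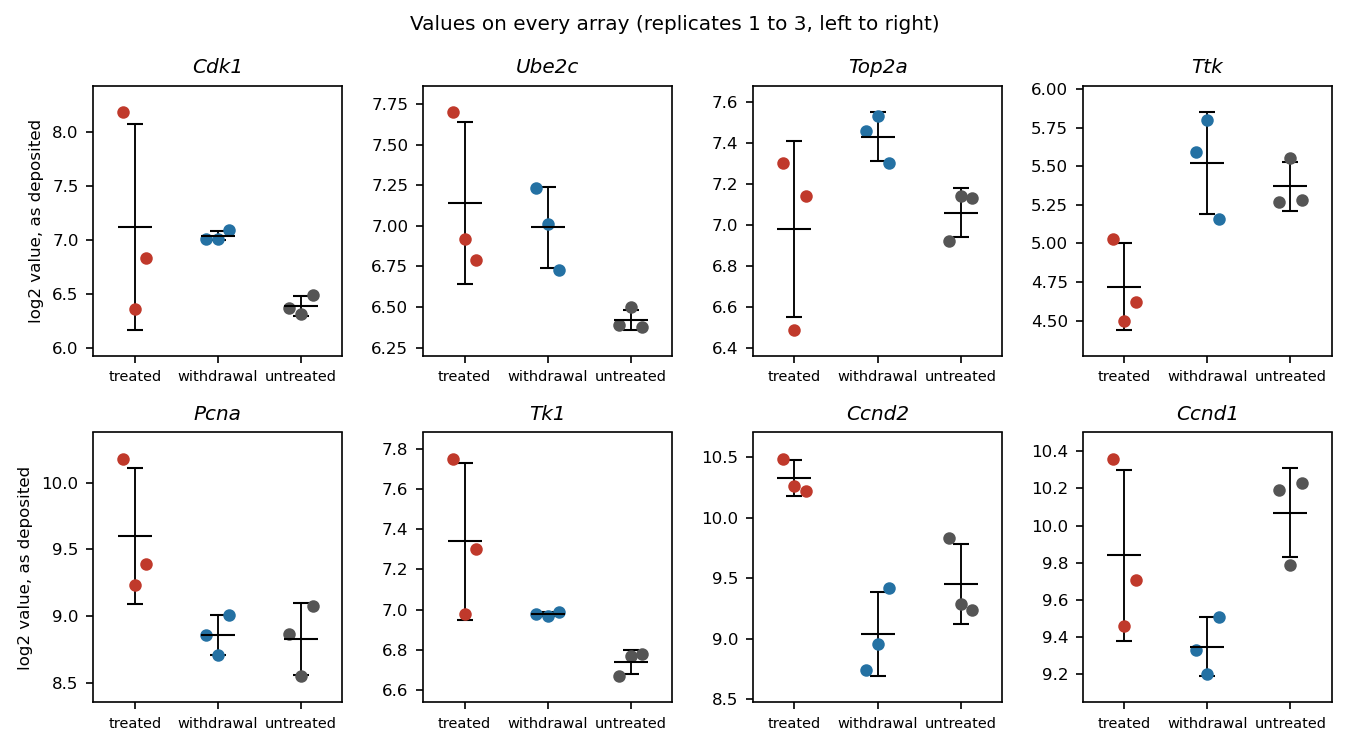
Deposited log2 values of Cdk1, Ube2c, Top2a, Ttk, Pcna, Tk1, Ccnd2 and Ccnd1 on each of the 9 arrays, with the mean and SD of each group (n = 3). Ccnd2 is above 10.2 on all treated arrays and below 9.9 on all others, and Cdk1 on the first treated array, at 8.18, is above every other array.

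No gene of the set passed the test between withdrawal islets at 11 weeks and untreated islets at 13 weeks, although most of the differences were positive. By limma 0 of 42 were called in either direction, where 0.00483% of all tested probe sets were called higher and 0.155% lower, so the comparison called almost nothing (33 probe sets). At an unadjusted p under 0.05 there were 4 of the 42 genes, 3 of them higher, against 1553 of all 20695 tested probe sets. After quantile normalization it was again 0 of 42 (0.0338% and 0.387% of all). Then 8 of the 42 had an unadjusted p under 0.05, 7 of them higher, against 2170 of all 20695 tested probe sets. The median difference was 0.16 as deposited and 0.19 after quantile normalization, against −0.02 and 0.00 over all tested probe sets, and 36 of the 42 differences were positive, or 37 after quantile normalization.

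The values themselves separated more often than the test called. For 16 of 42 genes (38.1%) every withdrawal array was above every untreated array, against 7.65% of all tested probe sets. They were Cdk1, Birc5, Top2a, Tk1, Cdkn3, Kif20a, Cdca3, Cenpf, Bub1b, Ube2c, Ccnb2, Melk, Kif11, Prc1, Pbk and Mad2l1, all of them mitotic genes except Tk1. After quantile normalization it was again 16 (38.1%, against 9.75% of all), with Mcm7 in place of Cdca3. The reverse, every withdrawal array below every untreated one, held for Ccnd1 (2.38%, against 10.3%). Neither count is a test. In the withdrawal group the macrophage markers, at a summed log2 of 76.8 to 78.8, also lay above the untreated 71.4 to 73.3 without overlap, as did T lymphocyte markers (60.9 to 62.6 against 59.3 to 60.4) and stellate cell markers (96.4 to 98.4 against 91.8 to 95.9). These are sums, and not every marker followed. The stellate marker Dcn measured 9.51, 9.50 and 9.85 on withdrawal against 9.85, 9.59 and 10.12 on untreated arrays. Of the 9, 9 and 10 markers tested, 0 were called (0.00483% of all higher, 0.155% lower). Summed beta cell markers (78.1 to 79.5 against 79.5 to 81.5) and endothelial markers (69.5 to 71.9 against 71.5 to 75.2) ran lower, in ranges that met or overlapped. The part of all these markers in the result was not tested.

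The 9-array estimate of spread includes the first treated array, and the comparison moved when that array was left out or weighted down. Without it Cdk1 and Ube2c were called higher, 2 of 42 (4.76%, against 0.507% of all), and Ccnd1 lower, 1 of 42 (2.38%, against 1.42%). With array weights, which gave the first treated array 0.163 and the others 0.484 to 2.132, 8 of 42 genes were called higher (against 3.73% of all), namely Cdk1, Birc5, Top2a, Cdkn3, Cenpf, Bub1b, Ube2c and Kif11. Ccnd2 and Ccnd1 were called lower under those weights (4.76%, against 12.1%).

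Cdk1 measured 7.01, 7.01 and 7.09 on withdrawal against 6.37, 6.32 and 6.49 on untreated arrays. The groups stood apart by more than their own spread. The difference was 0.64 ± 0.34 (SE, n = 3 per group; adjusted p = 0.734) in the 9-array fit, whose error takes in the treated arrays, and its adjusted p was 0.015 without the first treated array and 0.00531 in a fit of the 6 arrays compared.

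Ube2c, at the values above, differed by 0.57 ± 0.21 (adjusted p = 0.56, and 0.0341 without the first treated array). Top2a measured 7.46, 7.53 and 7.30 on withdrawal against 6.92, 7.14 and 7.13 on untreated arrays, a difference of 0.36 ± 0.19 (adjusted p = 0.732), and its second probe set gave 0.41. Mki67 was also higher on every withdrawal than every untreated array, by 0.37 ± 0.18 (adjusted p = 0.806, fit without the filter). So were Ccna2, the cyclin of S phase and G2, and Bub1, a checkpoint kinase, with withdrawal minus untreated differences of 0.47 and 0.51 that did not pass in that fit (adjusted p = 0.91 and 0.837) and log2 values of 3.25 to 5.43 and 3.46 to 5.06 over the arrays.

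The remaining mitotic genes of this pattern had differences from 0.11 to 0.50. The largest was that of Cdkn3, a phosphatase of cyclin-dependent kinases, at 5.83, 5.81 and 5.86 against 5.36, 5.21 and 5.42, a difference of 0.50 ± 0.28 (adjusted p = 0.761). Cenpf, a kinetochore protein, had 6.02, 5.84 and 5.80 against 5.68, 5.39 and 5.45, a difference of 0.38 ± 0.13 (adjusted p = 0.489). Birc5, survivin of the chromosomal passenger complex, had 5.67, 5.87 and 5.66 against 5.29, 5.36 and 5.54, a difference of 0.34 ± 0.12 (adjusted p = 0.536).

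The D cyclins had negative differences in this comparison, none of which passed. Ccnd1 was lower on every withdrawal than every untreated array, by 0.72 ± 0.21 on the log2 scale, and its difference of −0.72 had an adjusted p of 0.364, or 0.0114 without the first treated array. After quantile normalization it was −0.53 (adjusted p = 0.082). Its other probe sets gave −0.62 and −0.51. Ccnd2 differed by −0.41 ± 0.20 (adjusted p = 0.701), with overlapping values, and Ccnd3 by −0.15 ± 0.14 (adjusted p = 0.866).

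Withdrawal islets at 11 weeks differed from treated islets at 9 weeks in genes of several roles. Tyms, Ttk, Melk, Kif11, Ccne2, Cdk2, Pbk and Mad2l1 rose, 8 of 42 tested genes, where 11.2% of all tested probe sets did. Pcna, Ccnd3, Cdk4 and Ccnd2 fell, 4 of 42 (9.52%, against 32.6%), all of them among the brightest 10% of probe sets. The median log2 difference was −0.05, against −0.19 over all tested probe sets, and 19 of 42 were positive. This comparison uses the same treated arrays as treated against untreated.

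On the quantile normalized scale 7 genes were called higher, Top2a, Cdca3, Ttk, Melk, Cdk2, Pbk and Mad2l1 (16.7%, against 14.5% of all), and 1 lower, Ccnd2 (2.38%, against 14.6%), with a median of 0.10 against −0.03. The share of higher calls among all calls of the set thus went from 8 of 12 to 7 of 8, and in treated against untreated from 5 of 6 to 1 of 5. Over all tested probe sets it moved the same way, from 2312 of 9057 to 3011 of 6032, and from 4318 of 5817 to 1604 of 3558. Ttk, Melk, Cdk2, Pbk, Mad2l1 and Ccnd2 were called in the same direction on both scales. Without the first treated array 16 genes were called higher (38.1%, against 14.1%), namely Cdk1, Tyms, Top2a, Cdkn3, Kif20a, Cdca3, Aurka, Ttk, Bub1b, Ccnb2, Melk, Kif11, Ccne2, Cdk2, Pbk and Mad2l1. Pcna, Cdk4 and Ccnd2 were then called lower (7.14%, against 31.9%). Counts over both directions were 4 without the first withdrawal array (9.52%, against 29.9% of all), 4 without the second (9.52%, against 27.0%) and 6 without the third (14.3%, against 39.0%). Without the third treated array the count was 7 (16.7%, against 42.7%). Ccnd2 and Ttk were called in each of the 9 fits that left out 1 array.

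Ttk, at the values given above, had a difference of 0.80 ± 0.19 (SE, 3 arrays a group; adjusted p = 0.00577), and of 0.73 on the quantile normalized scale (adjusted p = 0.0146). All 3 withdrawal arrays lay above all 3 treated arrays. The dim second probe set of Ttk differed by 0.70 in the fit without the filter (adjusted p = 0.00242).

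Mad2l1, the Mad2 protein that holds the anaphase-promoting complex in check until all kinetochores are attached, measured 6.20, 6.10 and 6.18 on withdrawal, 5.96, 5.39 and 5.54 on treated and 6.01, 6.06 and 5.95 on untreated arrays. The treated arrays spread widely and all lay below the withdrawal arrays. Its difference was 0.53 ± 0.15 (adjusted p = 0.0134), with the same difference after quantile normalization (adjusted p = 0.0148). Its 2 other probe sets, below the filter, differed by 0.21 and 0.01.

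Pbk, a mitotic kinase, measured 6.34, 6.34 and 6.32 on withdrawal, 6.29, 5.58 and 5.59 on treated and 6.14, 6.21 and 6.16 on untreated arrays. The first treated array lay close to the withdrawal arrays and the other treated arrays far below. The difference was 0.51 ± 0.17 (adjusted p = 0.0307) and 0.55 after quantile normalization (adjusted p = 0.0207). Melk, a kinase of mitotic cells, had the same form, at 6.29, 6.24 and 6.40 on withdrawal, 6.23, 5.59 and 5.80 on treated and 6.16, 6.18 and 6.04 on untreated arrays, with a difference of 0.44 ± 0.16 (adjusted p = 0.0394) and 0.47 after quantile normalization (adjusted p = 0.0265).

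Kif11, the motor that pushes spindle poles apart, measured 5.75, 5.64 and 5.67 on withdrawal, 5.37, 4.70 and 5.34 on treated and 5.32, 5.56 and 5.24 on untreated arrays. Every withdrawal array lay above all others. The difference from treated was 0.55 ± 0.18 (adjusted p = 0.0249), and 0.48 after quantile normalization (adjusted p = 0.0564), and a dimmer probe set below the filter gave −0.10. Top2a, at 7.30, 6.49 and 7.14 on treated arrays, differed by 0.45 ± 0.19 (adjusted p = 0.0668), and by 0.70 after quantile normalization (adjusted p = 0.0125). Its second probe set gave −0.07, so its probe sets did not act alike here.

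Cdk2, at the values given above, rose by 0.38 ± 0.12 (adjusted p = 0.0252) and by 0.39 after quantile normalization (adjusted p = 0.0178). Ccne2, an E cyclin that activates it, measured 5.32, 5.21 and 5.40 on withdrawal, 5.00, 4.82 and 4.89 on treated and 5.16, 5.51 and 5.12 on untreated arrays, without overlap between withdrawal and treated. It differed by 0.41 ± 0.14 (adjusted p = 0.0282), and by 0.33 after quantile normalization (adjusted p = 0.0674). A dimmer probe set of Ccne2 gave −0.38. Tyms, the thymidylate synthase, measured 6.04, 5.50 and 5.71 on withdrawal, 5.51, 5.01 and 5.33 on treated and 5.36, 5.68 and 5.41 on untreated arrays, with overlap. Its difference of 0.46 ± 0.17 passed narrowly (adjusted p = 0.0455) and not after quantile normalization (0.41, adjusted p = 0.0905).

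These 6 calls did not hold in every fit that left out 1 array. Without the first withdrawal array the adjusted p was 0.0698 for Cdk2, 0.0797 for Ccne2, 0.0816 for Kif11, 0.0826 for Pbk, 0.0913 for Melk and 0.195 for Tyms. Without the second treated array it was 0.0672 for Ccne2, 0.0707 for Kif11, 0.0957 for Pbk, 0.132 for Melk and 0.144 for Tyms. Without the third treated array it was 0.0782 for Cdk2, 0.0571 for Ccne2, 0.105 for Pbk, 0.0939 for Melk and 0.0723 for Tyms. Without the second withdrawal array it was 0.077 for Cdk2, 0.0532 for Ccne2, 0.0626 for Kif11, 0.0857 for Pbk and 0.0781 for Melk, and without the third withdrawal array 0.0611, 0.0894, 0.0553, 0.0655 and 0.111 for these, with 0.0811 for Tyms. Melk and Tyms also missed the threshold without the first untreated array (0.0565 and 0.0594) or the third (0.0543 and 0.0628).

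Of the genes that fell, Ccnd2 had the largest difference of the set, −1.28 ± 0.20 (adjusted p = 0.0011), and −0.57 after quantile normalization (adjusted p = 0.0306). Pcna differed by −0.74 ± 0.22 (adjusted p = 0.0203), Cdk4 by −0.60 ± 0.17 (adjusted p = 0.0152) and Ccnd3 by −0.42 ± 0.14 (adjusted p = 0.0265). After quantile normalization these 3 differed by −0.07, 0.09 and 0.22, none of which passed. They missed the threshold without the second withdrawal array (adjusted p = 0.0808 for Pcna, 0.0713 for Cdk4 and 0.0975 for Ccnd3). Pcna and Ccnd3 also missed it without the first withdrawal array (0.0594 and 0.0861), and Ccnd3 without the first treated array (0.0567). Without that array Ccnd2 differed by −1.20, Cdk4 by −0.39 (adjusted p = 0.0236) and Pcna by −0.45 (adjusted p = 0.0275).

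Cdk1 showed how far a single array carried this comparison. With all arrays its withdrawal minus treated difference was −0.09 (adjusted p = 0.854), and without the first treated array it was 0.44 (adjusted p = 0.0187). The other mitotic cyclins, Ccnb1 and Ccnb2, differed by −0.20 and 0.03 with all arrays and did not pass. Ccnb1 was called in neither setting, and Ccnb2 was called higher without that array.

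**Figure D4:**
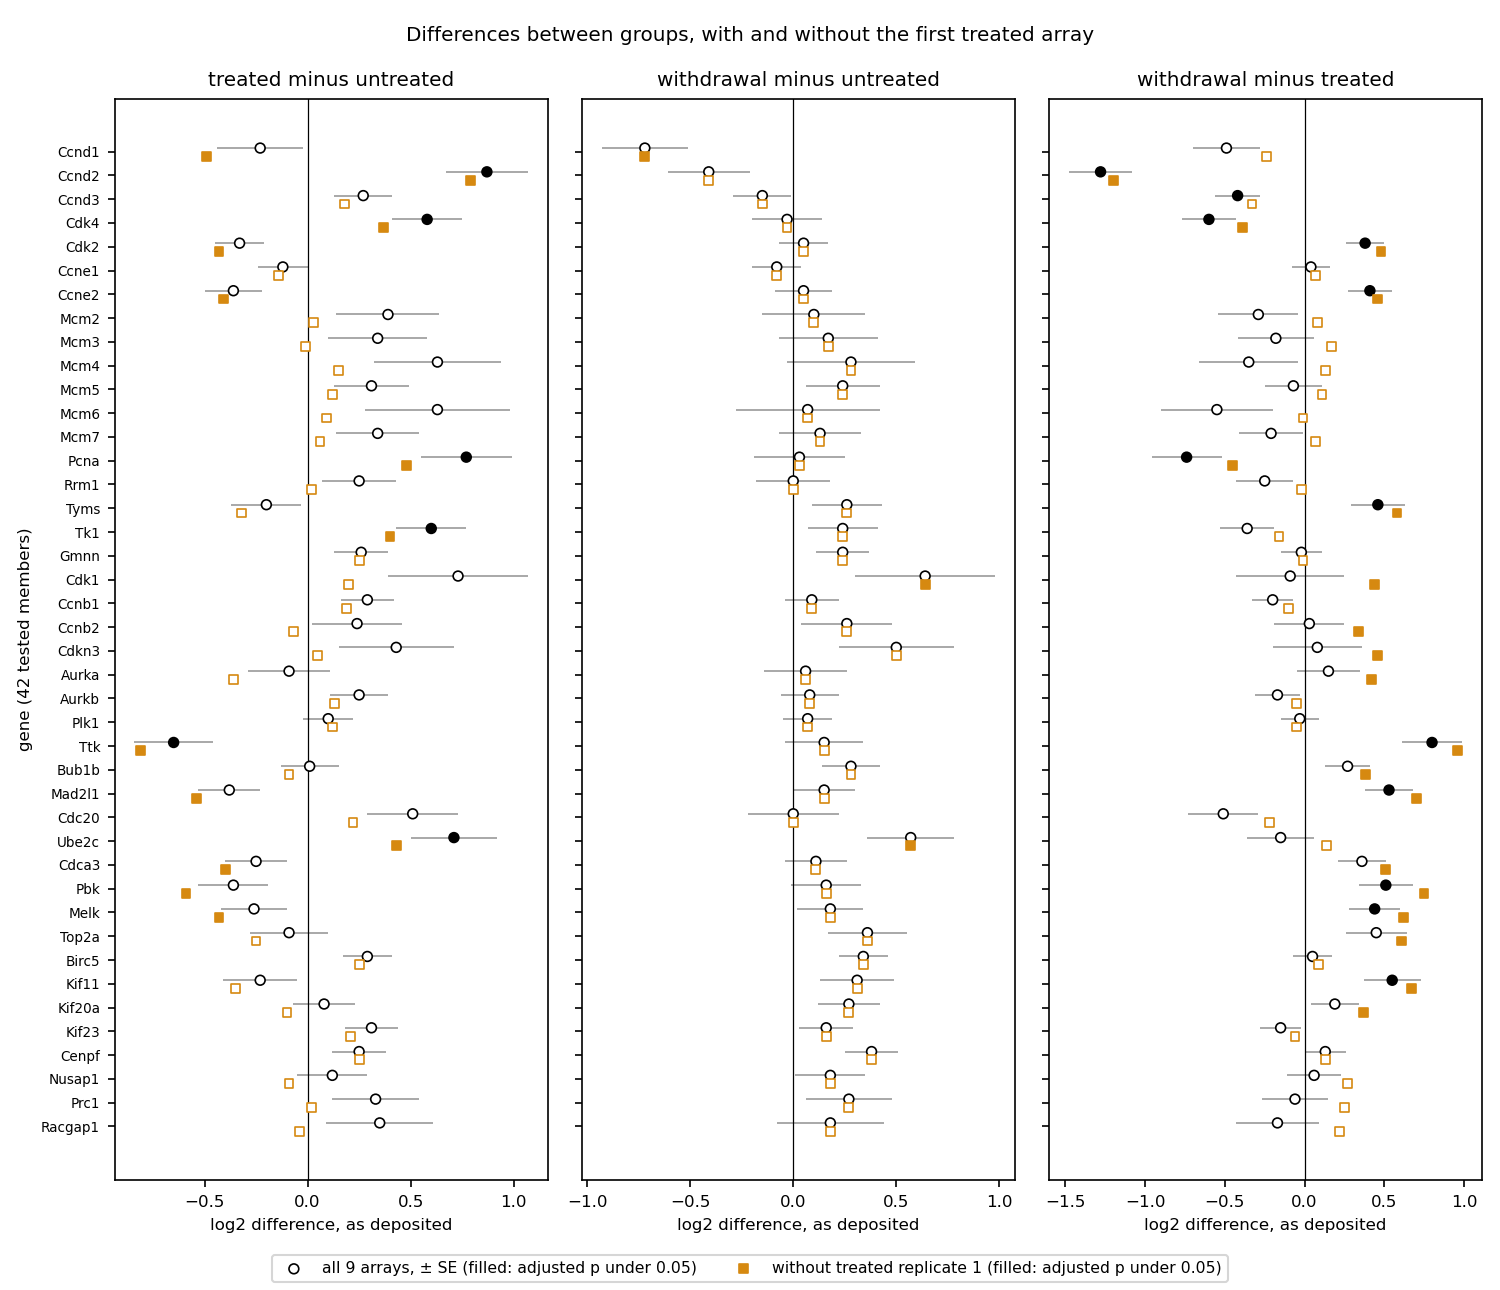
Log2 differences with SE (n = 3 arrays per group) of the 42 tested cell cycle genes in each of the 3 comparisons, filled where limma's adjusted p is under 0.05. Orange squares give the estimate without the first treated array. In withdrawal minus untreated 36 of 42 points are positive and none is filled, and Ccnd2 at −1.28 is the lowest point in withdrawal minus treated.

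The remaining genes were called in no comparison of the deposited values. Aurka and Aurkb, kinases of spindle poles and kinetochores, had differences from −0.17 to 0.25 over the comparisons, and Plk1, the polo-like kinase, from −0.03 to 0.10. Cdc20, the activator of the anaphase-promoting complex, had a treated minus untreated difference of 0.51 ± 0.22 (adjusted p = 0.105), with 6.95, 6.04 and 6.12 on treated and 5.96, 5.62 and 6.0 on untreated arrays. Prc1, Racgap1, Kif23, Kif20a and Nusap1, proteins of the central spindle and cytokinesis, had treated minus untreated differences from 0.08 to 0.35 and withdrawal minus untreated differences from 0.16 to 0.27.

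Counts for 3 lists of genes outside the set stand against the shares of all tested probe sets given above. Those were 20.9% called higher and 7.24% lower in treated against untreated, and 11.2% and 32.6% in withdrawal against treated. After quantile normalization they were 7.75% and 9.44%, then 14.5% and 14.6%. Of 30 tested genes in a list of 50 further proliferation genes, 3 rose and 3 fell in treated against untreated, 0 were called in withdrawal against untreated, and 4 rose and 3 fell in withdrawal against treated. The median differences were 0.11, 0.16 and 0.03, against 0.16, −0.02 and −0.19 over all tested probe sets. Counts after quantile normalization were 3 and 3, 0, and 5 and 3. Dut, the dUTPase that keeps uracil out of DNA, rose by 0.91 ± 0.21 in treated against untreated (adjusted p = 0.0102; 0.47 after quantile normalization, adjusted p = 0.0285). Fen1, the flap endonuclease of lagging strand synthesis, rose by 0.58 ± 0.15 (adjusted p = 0.0163; 0.49, adjusted p = 0.0207). Both fell in withdrawal against treated, with differences of −1.04 and −0.61. Dnmt1, the maintenance DNA methyltransferase, fell by 0.65 ± 0.18 in withdrawal against treated (adjusted p = 0.0116).

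The 4 genes of that list that rose in withdrawal against treated were E2f8, Incenp, Hmmr and Mcm10. E2f8, an E2F repressor made in S phase and G2, rose by 0.83 ± 0.16 (adjusted p = 0.00257; 0.76 after quantile normalization, adjusted p = 0.00763). Incenp, of the chromosomal passenger complex, rose by 0.62 ± 0.15 (adjusted p = 0.00641), and Hmmr, a spindle assembly protein, by 0.89 ± 0.24 (adjusted p = 0.012). Mcm10, a replication initiation factor, rose by 0.57 ± 0.15 (adjusted p = 0.0111). Hmmr measured 6.46, 6.52 and 6.23 on withdrawal, 6.19, 4.97 and 5.37 on treated and 6.23, 6.29 and 6.08 on untreated arrays, so the second and the third treated array were low and the first lay near the other groups.

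Of 15 tested inhibitors, RB family and p53 pathway genes, 3 rose and 1 fell in treated against untreated, 0 were called in withdrawal against untreated, and 1 rose and 7 fell in withdrawal against treated. The medians were 0.14, −0.14 and −0.20. After quantile normalization the counts were 0 and 2, 0, and 1 and 0. Cdkn1c, the kinase inhibitor p57, measured 5.90, 5.81 and 5.35 on treated, 6.58, 6.28 and 6.28 on withdrawal and 6.41, 6.76 and 6.73 on untreated arrays, and all treated values lay below the rest. It fell by 0.95 ± 0.17 in treated against untreated (adjusted p = 0.00361; by 0.97 after quantile normalization, adjusted p = 0.00422), and rose by 0.69 ± 0.17 in withdrawal against treated (adjusted p = 0.00728). Cdkn1b, the inhibitor p27, went opposite to Cdkn1c as deposited, at 0.62 ± 0.20 in treated against untreated (adjusted p = 0.0365), but by 0.10 after quantile normalization (adjusted p = 0.582). Wee1, the kinase that inhibits Cdk1, rose by 0.57 ± 0.14 in treated against untreated (adjusted p = 0.0135; 0.35, adjusted p = 0.0517), and Btg1, an antiproliferative gene, by 0.81 ± 0.20 (adjusted p = 0.015; 0.31, adjusted p = 0.0761). Ccng1 and Mdm2, both p53 targets, fell by 0.56 ± 0.15 and 0.43 ± 0.11 in withdrawal against treated (adjusted p = 0.0116 and 0.00919), with 0.18 and 0.06 after quantile normalization.

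Of 14 tested growth signals of islets, 5 rose and 2 fell in treated against untreated, 0 rose and 1 fell in withdrawal against untreated, and 0 rose and 5 fell in withdrawal against treated. The medians were 0.13, −0.02 and −0.12. After quantile normalization the counts were 2 and 4, 0 and 1, and 2 and 2. Prlr, the prolactin receptor, which drives beta cell growth in pregnancy, measured 9.97, 9.56 and 9.73 on treated, 8.67, 8.55 and 8.87 on withdrawal and 8.91, 8.76 and 9.01 on untreated arrays. It rose by 0.86 ± 0.14 in treated against untreated (adjusted p = 0.00285; 0.33, adjusted p = 0.0369) and fell by 1.05 ± 0.14 in withdrawal against treated (adjusted p = 0.000777; by 0.39, adjusted p = 0.014). Hbegf, a ligand of the EGF receptor, was low in both drug groups, at 5.56, 5.84 and 5.75 on treated, 5.60, 5.73 and 5.66 on withdrawal and 7.17, 6.80 and 6.95 on untreated arrays. It fell in both against untreated, with differences of −1.26 ± 0.13 for treated (adjusted p = 0.000397) and −1.31 ± 0.13 for withdrawal (adjusted p = 0.00154), and those comparisons share the untreated arrays. Myc, the growth transcription factor, rose by 0.71 ± 0.18 in treated against untreated (adjusted p = 0.0153; 0.42, adjusted p = 0.0416). Igf2, a growth factor, rose by 0.83 ± 0.12, its receptor Igf1r by 0.68 ± 0.17 and Men1, the menin gene that restrains islet growth, by 0.55 ± 0.14, and after quantile normalization these were 0.33, 0.36 and 0.28, none past the threshold.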

How the data were processed

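RNA of pancreatic islets from 9 samples in 3 groups of 3 was measured on Affymetrix rat arrays. The deposited values were used as log2 values: all lie in the narrow positive range of log2 summaries. RMA and MAS5 are named without role or version per the submitters' processing notes, so the authors' background correction and scaling are not known here. Array medians ran from 5.736 to 5.806. Precision is limited by the number of arrays. The labels call the arrays biological replicates, which does not by itself say that each is a separate animal. The p-values therefore measure only the spread between these samples.

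The table held 31099 probe sets, of which 57 were controls and were left out. Gene names came from the platform annotation, updated through the gene table of GRCr8: 20826 probe sets had 1 symbol, 436 had several and 9780 were not listed. By gene number 20758 symbols matched, 2 by accession, and 66 were kept. The dimmest 33.3% of probe sets, ranked on mean log2, were not tested. R 4.3.3 with limma 3.58.1 fitted all 9 arrays with 1 term for each group (functions lmFit and eBayes), with Benjamini-Hochberg adjustment over all 20695 tested probe sets and a threshold of 0.05. No set test was used. The script was tested on simulated data.

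Genes described on every array were those called in any comparison or the F test (at most 20), with Mki67, Top2a, Cdk1, Pcna, the D cyclins and Cdk4 always included. From each list of other genes up to 6 called genes with the smallest F p were named. Other genes named were chosen after their values were seen. The members, lists and rules were chosen with earlier results of these data known. Alternatives were quantile normalization, centring, other filters, array weights, a trended and robust eBayes, fitting only the arrays of the 2 groups compared, blocking on replicate number, averaging a gene's probe sets, and leaving out each array in turn. Quantile normalization without the first treated array was added after the data were seen. Promoters were searched with Python 3.11.15, and figures drawn with matplotlib 3.10.9.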

Additional observations from a re-analysis of the deposited data

How the results depend on the processing

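A group size of 3 arrays, values of unknown scaling and 1 array that stands apart limit these results. Of 957 values under alternatives for the named genes, 830 kept their side of the threshold (22 of these, not called either way, changed sign). With the sign kept, 75 lost the call and 43 gained one. The other 9 changed sign, and each lost or gained a call, so none was called in opposite directions. Array weights gave 13 of 42 genes called in treated against untreated (34.7% of all tested probe sets), 10 in withdrawal against untreated (15.8%) and 24 by the F test (55.0%). A fit of only the 6 arrays compared gave 2 (15.5%) and 4 (2.39%) in these comparisons. Quantile normalization without the first treated array gave 3 in withdrawal against untreated (1.98%) and 15 by the F test (29.9%), and a median of −0.05 for treated against untreated, with 0.26 for withdrawal against treated. In that setting Cdk4 was −0.02 for treated against untreated. For withdrawal against treated Cdk4 was 0.15, Pcna 0.07, Ccnd1 0.33, Ccnd3 0.18 and Cdk1 0.54. Quantile normalization of all arrays turned Cdk4 to 0.09 and Ccnd3 to 0.22 in withdrawal against treated. Leaving out 1 array gave 0 to 13 genes called in treated against untreated, 0 to 3 in withdrawal against untreated, 4 to 19 in withdrawal against treated and 2 to 20 by the F test. Medians ran from 0.03 to 0.36, 0.12 to 0.19 and −0.19 to 0.14, and Cdk1 in withdrawal against treated ran from −0.47 to 0.44. Over all tested probe sets, calls in withdrawal against untreated went from 33 to 87 after quantile normalization, 494 in the fit of 6 arrays and 3275 with array weights, and those in treated against untreated from 5817 to 3558 after quantile normalization. The cause of these changes was not tested. With the replicate number as a block the counts of the gene set were 6, 0, 13 and 8 of 42. The shares of all tested probe sets were then 31.0%, 0.242%, 45.6% and 39.5%. Same-numbered arrays of different groups had correlations, of their deviations from the group means, from −0.283 to 0.504. Differently numbered arrays had correlations from −0.485 to 0.406. These ranges overlap and do not settle whether the numbers stand for a shared batch or a pairing.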
